A study of Mus musculus with 34 samples.

Results

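Distal H3K4me3 regions inside genes were examined in villus cells of the mouse small intestine. These are stretches of the genome with high H3K4me3 that lay more than 5000 bp from every annotated transcript 5′ end and overlapped the body of a protein-coding gene. They were chosen by the measured signal itself: the 4 deposited tracks were averaged with equal weight in bins of 100 bp, bins at 10 times the genome-wide mean or more were kept, gaps of up to 500 bp were joined, and regions of at least 300 bp were retained. Of 14071 such regions, 724 (5.15%) lay distally inside genes, 934 lay distally between genes and 12413 were promoter-proximal, within 5000 bp of a 5′ end. The regions covered 465 kb in all and fell into 591 named host genes.

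H3K4me3 was measured by CUT&RUN, in which an antibody brings micrococcal nuclease to the histone mark and the released DNA fragments are sequenced. WT mice (2 libraries) were compared with ApcMin/+ mice (2 libraries), both C57BL/6J and 5 weeks old according to the labels, whereas the methods give a later age. ApcMin/+ mice carry a germline truncating allele of the tumour suppressor Apc next to a normal allele in every cell. Villus cells were scraped from the small intestine, so the preparation was not restricted to a single cell type, and fewer modified cells cannot be told apart from less signal per cell. Per the methods as many mice as libraries were taken for each genotype and age, but the labels do not tie libraries to animals, so the spread between libraries may be in part technical.

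H3K4me3 is placed by the SET1 and MLL methyltransferase complexes, which are recruited through CpG-rich DNA and active RNA polymerase. It is best known as a mark of active promoters, whereas enhancers usually carry H3K4me1 with little H3K4me3. Start sites used in a single tissue can lie far inside an annotated gene, and very active enhancers can also acquire the mark.

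Depth differed between libraries, from 1430000 tags in WT replicate 1 to 5470000 in ApcMin/+ replicate 2, and the tracks were scaled by the authors to 10000000 tags each. The signal outside enriched regions was lowest in ApcMin/+ replicate 1, 0.189, against 0.268 to 0.314 in the others, and this library was the highest at regions of all kinds. The tissue label was checked at the promoters of marker genes, where all 7 enterocyte genes (Vil1, Alpi, Fabp1, Fabp2, Krt20, Cdx2 and Epcam) had a mean signal of at least 2. None of 4 immune, 4 mesenchyme and muscle and 3 neuron markers reached it. Markers of secretory and crypt cells were not included, so enterocytes were not told apart from other epithelial cells. The summed promoter signal was 27.3 to 134 for enterocytes, 2.90 to 4.18 for immune cells, 0.349 to 3.07 for mesenchyme and muscle, and 1.27 to 3.28 for neurons.

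The regions with the highest mean signal are shown first, because several of them consist of sequence that occurs elsewhere in the genome. Each run holds the 300 bases at the highest bin, read 5′ to 3′ on the plus strand of the mm10 reference, and capitals mark bases within a stretch of 25 bases that occurs more than once in the 21 chromosomes.
Cntnap5b, chr1:100180101-100180400: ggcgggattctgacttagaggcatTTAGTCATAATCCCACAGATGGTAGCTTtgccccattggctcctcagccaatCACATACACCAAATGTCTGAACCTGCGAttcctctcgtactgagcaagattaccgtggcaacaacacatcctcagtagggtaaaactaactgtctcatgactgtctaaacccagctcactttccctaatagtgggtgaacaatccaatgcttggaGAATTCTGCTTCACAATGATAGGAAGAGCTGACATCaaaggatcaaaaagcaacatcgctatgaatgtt
Gphn, chr12:78350901-78351200: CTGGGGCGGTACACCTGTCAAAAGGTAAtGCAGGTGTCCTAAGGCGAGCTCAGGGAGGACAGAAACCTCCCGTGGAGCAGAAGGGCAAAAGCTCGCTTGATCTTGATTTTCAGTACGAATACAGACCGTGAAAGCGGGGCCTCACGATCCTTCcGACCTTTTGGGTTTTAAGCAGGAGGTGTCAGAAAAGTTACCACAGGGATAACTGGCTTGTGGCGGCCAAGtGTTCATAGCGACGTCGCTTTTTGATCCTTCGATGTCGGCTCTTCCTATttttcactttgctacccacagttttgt
Gm17655, chr5:110058101-110058400: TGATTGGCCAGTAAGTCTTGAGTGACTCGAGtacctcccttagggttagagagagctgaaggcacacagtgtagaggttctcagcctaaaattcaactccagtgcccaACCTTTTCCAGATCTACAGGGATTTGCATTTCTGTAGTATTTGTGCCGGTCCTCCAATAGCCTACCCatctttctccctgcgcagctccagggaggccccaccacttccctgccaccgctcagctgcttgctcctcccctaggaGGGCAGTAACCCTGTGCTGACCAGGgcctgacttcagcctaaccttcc
Camk1d, chr2:5379101-5379400: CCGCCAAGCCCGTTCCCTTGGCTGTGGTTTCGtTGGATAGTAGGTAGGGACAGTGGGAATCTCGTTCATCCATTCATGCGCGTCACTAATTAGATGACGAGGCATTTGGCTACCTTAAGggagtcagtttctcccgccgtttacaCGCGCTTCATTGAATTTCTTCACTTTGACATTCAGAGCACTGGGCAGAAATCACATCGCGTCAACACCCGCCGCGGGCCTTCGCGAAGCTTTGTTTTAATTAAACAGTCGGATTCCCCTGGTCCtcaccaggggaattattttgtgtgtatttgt
Nenf, chr1:191312601-191312900: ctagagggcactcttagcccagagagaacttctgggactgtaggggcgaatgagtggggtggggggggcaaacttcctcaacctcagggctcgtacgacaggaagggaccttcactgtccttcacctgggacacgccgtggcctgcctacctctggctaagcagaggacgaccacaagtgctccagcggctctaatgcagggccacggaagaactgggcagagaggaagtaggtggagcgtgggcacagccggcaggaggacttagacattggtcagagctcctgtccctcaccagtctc
Cmss1/Filip1l, chr16:57391401-57391700: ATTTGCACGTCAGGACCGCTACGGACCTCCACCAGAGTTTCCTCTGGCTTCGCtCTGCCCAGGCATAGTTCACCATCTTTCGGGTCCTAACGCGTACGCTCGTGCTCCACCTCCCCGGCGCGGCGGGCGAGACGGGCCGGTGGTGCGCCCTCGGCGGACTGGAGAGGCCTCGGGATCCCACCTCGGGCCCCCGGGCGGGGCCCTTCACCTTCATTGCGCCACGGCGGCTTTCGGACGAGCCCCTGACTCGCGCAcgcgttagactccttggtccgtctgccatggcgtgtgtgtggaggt
Capitals covered 270 of 300 bases inside Gphn, which encodes the synaptic scaffold gephyrin, 253 inside the overlapping genes Cmss1 and Filip1l, and 242 inside Camk1d, which encodes a calmodulin-dependent kinase. Inside Cntnap5b, a neurexin-family adhesion gene, they covered 92 bases, and inside Gm17655 they covered 123. The run inside Nenf, the gene of the secreted factor neudesin, held none. Over whole regions, more than 50% of the 25-base stretches were repeated in 7 of 724 regions (0.967%), against 2.25% of the regions between genes and 0.983% of promoter-proximal regions. None of them shared a 25-base stretch with the mitochondrial genome. Copies in other sequence outside the 21 chromosomes were not counted, so these shares can be too low. No repeated stretch at all was found in 488 regions (67.4%).

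A second group of sequences shows the motif matches that set these regions beside promoters. They were chosen after their values were seen: 4 regions with an AP-1 match and 2 with an HNF4A match, each the highest in mean signal among regions at 10 times the genome-wide mean in all 4 libraries. Capitals here mark matches to any of the 10 motifs searched.
Gng7, chr10:80985701-80986000: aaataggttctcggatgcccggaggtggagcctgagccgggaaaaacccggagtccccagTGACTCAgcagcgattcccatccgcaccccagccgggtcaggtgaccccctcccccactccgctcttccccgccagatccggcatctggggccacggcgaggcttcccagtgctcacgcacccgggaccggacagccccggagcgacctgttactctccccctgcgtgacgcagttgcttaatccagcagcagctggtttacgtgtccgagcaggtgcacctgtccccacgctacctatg
Arhgef7, chr8:11776001-11776300: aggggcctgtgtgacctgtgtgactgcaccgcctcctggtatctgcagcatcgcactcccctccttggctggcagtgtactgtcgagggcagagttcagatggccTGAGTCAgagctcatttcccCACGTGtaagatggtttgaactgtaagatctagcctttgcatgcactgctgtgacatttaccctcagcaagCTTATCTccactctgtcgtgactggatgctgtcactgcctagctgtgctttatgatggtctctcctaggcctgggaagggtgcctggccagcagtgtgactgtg
Snx9, chr17:5849501-5849800: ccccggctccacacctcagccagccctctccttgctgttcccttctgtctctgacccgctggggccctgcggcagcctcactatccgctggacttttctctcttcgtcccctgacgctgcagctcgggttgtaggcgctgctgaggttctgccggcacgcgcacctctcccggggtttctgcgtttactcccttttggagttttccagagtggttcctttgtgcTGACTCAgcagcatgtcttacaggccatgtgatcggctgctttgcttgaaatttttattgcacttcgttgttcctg
Ccnd3, chr17:47511101-47511400: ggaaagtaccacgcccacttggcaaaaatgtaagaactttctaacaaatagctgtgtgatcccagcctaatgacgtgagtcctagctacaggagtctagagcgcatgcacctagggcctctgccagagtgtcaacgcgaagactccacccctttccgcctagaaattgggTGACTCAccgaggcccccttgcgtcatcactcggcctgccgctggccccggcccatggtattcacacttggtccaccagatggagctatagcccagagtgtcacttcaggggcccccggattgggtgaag
Sel1l3, chr5:53196501-53196800: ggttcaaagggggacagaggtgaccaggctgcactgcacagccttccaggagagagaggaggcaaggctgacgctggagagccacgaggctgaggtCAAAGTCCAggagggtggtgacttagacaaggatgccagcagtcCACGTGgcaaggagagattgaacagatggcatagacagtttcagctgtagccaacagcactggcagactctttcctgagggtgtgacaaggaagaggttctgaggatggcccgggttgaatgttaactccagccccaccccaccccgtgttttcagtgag
Itgb4, chr11:116005501-116005800: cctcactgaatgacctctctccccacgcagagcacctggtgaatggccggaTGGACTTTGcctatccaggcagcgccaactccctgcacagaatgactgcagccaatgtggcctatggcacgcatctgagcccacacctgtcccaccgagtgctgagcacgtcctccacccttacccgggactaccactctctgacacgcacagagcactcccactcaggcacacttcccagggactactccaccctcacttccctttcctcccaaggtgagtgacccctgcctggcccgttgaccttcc
Inside Gng7, Snx9 and Ccnd3, which encode a G protein subunit, a sorting nexin and cyclin D3, an AP-1 element was the only match. The runs of Gng7 and Ccnd3 began before the called region. At Gng7 the AP-1 element itself lay before the region, which started at chr10:80985801. Inside Arhgef7, a gene of a guanine nucleotide exchange factor, an AP-1 element lay with an E-box and a GATA element. Inside Sel1l3 the HNF4A element was accompanied by an E-box, and inside Itgb4, the integrin of hemidesmosomes, the HNF4A element stood alone.

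The level of the 724 regions was below that of promoter-proximal regions in every library. The median signal was 4.69 in WT replicate 1, 3.0 in WT replicate 2, 7.51 in ApcMin/+ replicate 1 and 4.07 in ApcMin/+ replicate 2. Promoter-proximal regions had medians of 6.07, 3.96, 17.4 and 5.49 in the same order, and regions between genes 4.59, 3.11, 9.12 and 4.12. Hence ApcMin/+ replicate 1 exceeded ApcMin/+ replicate 2 by 1.85 times inside genes and by 3.18 times at promoters. Since the regions were selected on the mean of these values, the levels are a description.

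**Figure D1:**
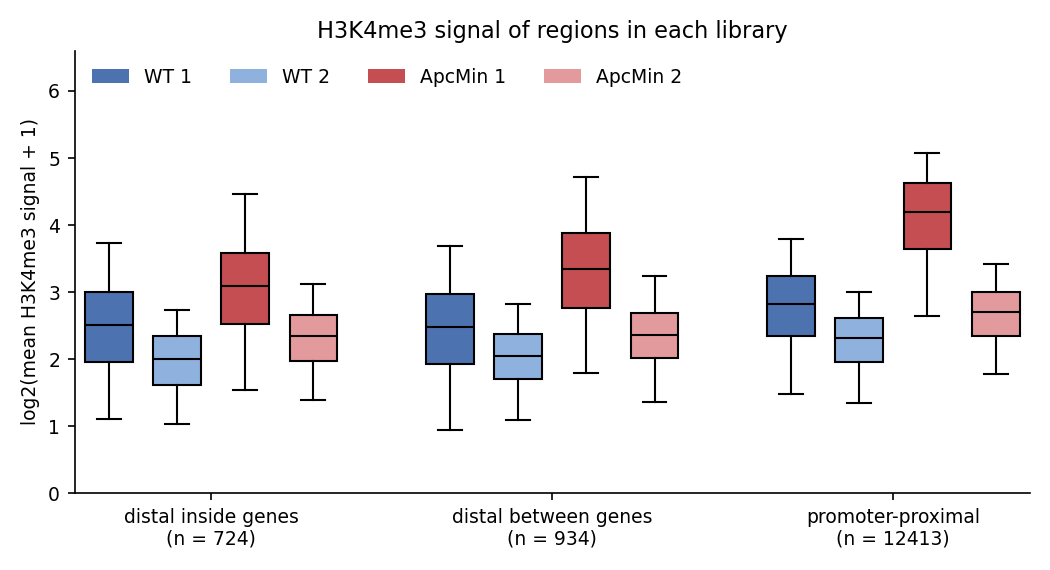
H3K4me3 signal of regions in each library, as log2(mean signal + 1), for distal regions inside genes, distal regions between genes and promoter-proximal regions. Lines are medians, boxes the quartiles and whiskers the 5th and 95th percentiles; inside genes the ApcMin 1 library has the highest median signal, 7.51, and WT 2 the lowest, 3.0.

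The highest of the 4 values came from ApcMin/+ replicate 1 in 451 regions, from WT replicate 1 in 204, from ApcMin/+ replicate 2 in 53 and from WT replicate 2 in 16. A single library held over 50% of the summed signal in 248 regions (34.3%), namely ApcMin/+ replicate 1 in 207 and WT replicate 1 in 41. The depth behind a value was low: the median region held 3.36, 6.92, 12.9 and 10.6 fragments in WT replicates 1 and 2 and ApcMin/+ replicates 1 and 2. At least 1 fragment was present in every library in 631 regions, at least 5 in 153 and at least 20 in 16.

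Regions were also graded by the number of libraries in which they stood at 10 times that library's own genome-wide mean. All 4 libraries reached it in 114 regions (15.7%), 3 in 218, 2 in 236, 1 in 148 and none in 8. When each library in turn was left out of the mean, 325 of 724 regions (44.9%) overlapped a distal region inside a gene in all 4 repeated callings. The share found again was lowest without ApcMin/+ replicate 1, 63.4%, and highest without WT replicate 2, 94.5%. Regions found in all 4 callings had medians of 5.40, 3.49, 8.30 and 4.65 in the order above, a length of 600 bp and a GC content of 52.7%.

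The regions were short and poor in CpG. Their median length was 500 bp, with quartiles of 300 and 700 bp, against 500 bp between genes and 1200 bp for promoter-proximal regions. The minimum length of 300 bp was found in 28.9%, against 23.6% between genes and 5.96% near promoters. GC content was 52.2% at the median, equal to that of regions between genes and below the 56.8% of promoter-proximal regions. CpG dinucleotides occurred at 0.247 of the number expected from base composition, against 0.317 between genes and 0.656 near promoters. A ratio above 0.6, which is typical of CpG islands, was found in 32 regions inside genes (4.42%), in 15.1% of regions between genes and in 60.1% of promoter-proximal regions. Repeat-masked bases made up 7.0% of the median region, and 7 regions were repeat-masked over 50% or more of their length.

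**Figure D2:**
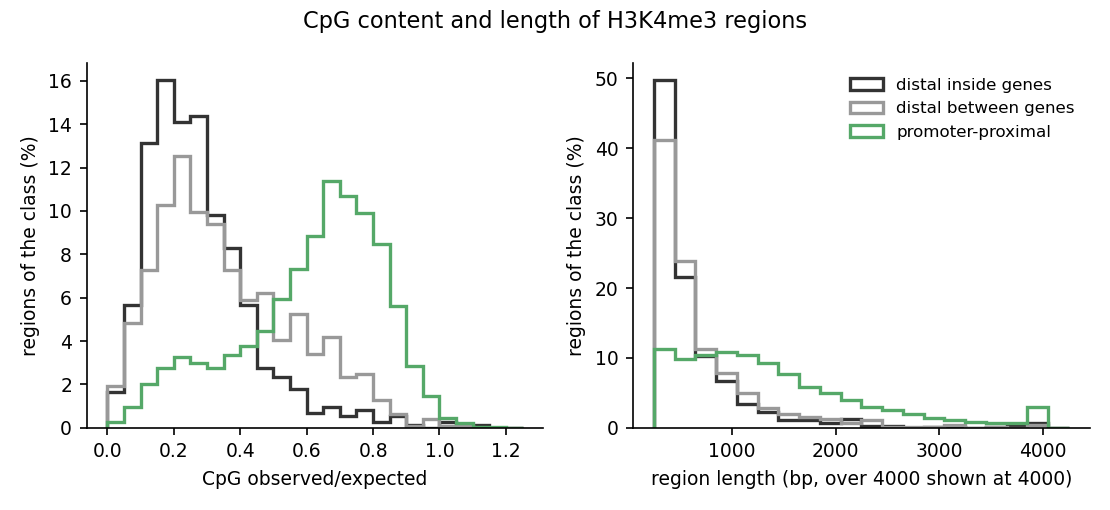
Distribution of the CpG observed/expected ratio (left) and of region length in bp (right) as percent of the regions of each class. Regions inside genes peak at low CpG content (median 0.247) and short length (median 500 bp), whereas promoter-proximal regions peak at higher values of both (0.656 and 1200 bp). Regions between genes have medians of 0.317 and 500 bp.

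Most regions lay in introns. Of the 724, 603 (83.3%) overlapped no annotated exon, 89 (12.3%) overlapped coding sequence, 26 overlapped a UTR without coding sequence and 6 another exon. Regions on coding exons had a median length of 600 bp and a CpG ratio of 0.370, against 400 bp and 0.234 in introns. Their median signals were 5.74, 3.24, 8.51 and 4.26 in the order of the libraries above, against 4.65, 2.97, 7.35 and 4.01 in introns. Along the host gene the regions were spread evenly, with 19.3%, 24.2%, 21%, 18.6% and 16.9% in 5 successive parts of equal length from the 5′ end and a median at 46.2% of the gene length. The median distance to the nearest GENCODE 5′ end was 10510 bp. It lay between 5000 and 10000 bp in 339 regions and above 50000 bp in 24, and the largest was 133388 bp, inside the oxidoreductase gene Wwox. The nearest 5′ end belonged to a host gene in 510 regions (70.4%).

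At the distance limit the choice was narrow. The 3 regions just inside it lay in introns of Fam120a (5017 bp from a 5′ end), Slc34a2 (5020 bp), the intestinal phosphate transporter, and Dnmbp (5033 bp). Fam120a had signals of 6.98, 3.01, 9.36 and 4.51, Slc34a2 9.35, 2.05, 1.20 and 3.70, and Dnmbp 2.38, 3.32, 3.04 and 3.4 in WT replicates 1 and 2 and ApcMin/+ replicates 1 and 2. The 3 regions just outside it overlapped Prrt4 (4995 bp), Bcl6 (4982 bp), which encodes a transcriptional repressor, and Gipc2 (4979 bp). Their signals were 2.02, 2.29, 6.98 and 4.62 at Prrt4, 4.01, 4.21, 12.7 and 4.86 at Bcl6, and 1.25, 6.25, 2.48 and 5.39 at Gipc2. The lowest maxima among the regions, each 10.2 times the genome-wide mean, were in Zcchc24, Zfp362 and Atp9a. Of these, Zcchc24 was even across libraries (3.57, 3.16, 2.90 and 3.30), Zfp362 rested on WT replicate 1 (12.2, 0, 0 and 1.71) and Atp9a was uneven (5.90, 1.5, 0.540 and 2.17).

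A second annotation was consulted for start sites that GENCODE M21 does not hold. A RefSeq transcript 5′ end lay inside 37 of 724 regions (5.11%), against 5.89% of regions between genes and 75.5% of promoter-proximal regions. In 34 of the 37 the first such 5′ end along the chromosome was only predicted, and further ones in the same region were not graded. Regions with such a 5′ end had a median length of 1000 bp, against 400 bp without, and median signals of 4.46, 3.19, 13.4 and 4.53, against 4.71, 2.98, 7.33 and 4.06. The CpG ratio was nearly the same, 0.237 against 0.247. In 3 regions the first such 5′ end was curated, inside Gsn, Ethe1 and the uncharacterised gene 3300002I08Rik. Gsn encodes the actin-severing protein gelsolin, and Ethe1 a mitochondrial sulfur dioxygenase.

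The 4 longest regions each held a predicted RefSeq 5′ end. The longest, 5600 bp inside Mgat3 at chr15:80188901-80194500, had signals of 7.60 and 4.19 in WT and 23.5 and 5.34 in ApcMin/+ mice. Mgat3 encodes the glycosyltransferase that adds the bisecting N-acetylglucosamine to N-glycans, and its region lay 15180 bp from the nearest GENCODE 5′ end. Inside Exph5, the gene of the Rab27 effector exophilin-5, a region of 5100 bp had 2.63 and 1.35 in WT and 23.1 and 2.08 in ApcMin/+ mice. In this region the first ApcMin/+ library held 79.2% of the summed signal, with 435.9 fragments against 58.1 in the second. Inside Smad1, which encodes a transducer of BMP signals, 5000 bp had 4.46 and 3.46 in WT and 16.4 and 5.93 in ApcMin/+ mice, and the groups did not overlap. The region of 4900 bp inside Ppfibp2, a liprin gene, had 7.55 and 4.15 in WT and 25.1 and 5.16 in ApcMin/+ mice. The fifth, 4200 bp inside the diacylglycerol kinase gene Dgkd, held no RefSeq 5′ end but lay 367 bp from one, and its signals were 3.10 and 2.57 in WT and 17.3 and 3.49 in ApcMin/+ mice. In all 5 the value of ApcMin/+ replicate 1 stood apart from the other 3.

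The 10 regions with the highest mean signal were of another kind, and 7 of them were at most 400 bp long. At Cntnap5b (chr1:100180101-100180400) the signal was 60.4 and 30.3 in WT and 32.6 and 63.9 in ApcMin/+ mice, and the groups overlapped. At a UTR exon of Lars2, the mitochondrial leucyl-tRNA synthetase gene, it was 14.1 and 43.1 in WT and 34.1 and 68.0 in ApcMin/+ mice, with 68.9% repeated 25-base stretches. Gphn had 34.6 and 16.9 in WT and 24.3 and 46.1 in ApcMin/+ mice, with 63.0% repeated. These 3 showed no lead of ApcMin/+ replicate 1, which was the highest library in 451 of the regions.

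In Camk1d the signal was 14.5 and 25.6 in WT and 24.2 and 31.9 in ApcMin/+ mice, and in the region of Cmss1 and Filip1l it was 24.1 and 8.74 against 9.97 and 30.9. Kctd16, which encodes an auxiliary subunit of the GABA-B receptor, had 27.2 and 23.2 in WT and 4.53 and 22.9 in ApcMin/+ mice, and the groups did not overlap. E030030I06Rik, which is 44.3% repeat-masked, had 14.8 and 18.6 against 8.42 and 13.2. Gm17655 had 15.9 and 8.46 in WT and 63.9 and 13.2 in ApcMin/+ mice, and Nenf 19.7 and 13.8 against 49.4 and 10.7. Abr, a gene of a regulator of small GTPases, held the only long region among these, of 3200 bp, with 12.6 and 5.03 in WT and 32.0 and 6.69 in ApcMin/+ mice. All 10 stood at 10 times the mean in every library.

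Host genes were long and had marked promoters. The 593 annotated host genes had a median length of 75845 bp, against 25194 bp for the 17520 protein-coding genes longer than 5300 bp, which alone could hold such a region in full. The signal within 1000 bp of the host's own 5′ end had a median of 4.83, against 1.97 for those genes, and 70.3% of hosts had a promoter signal of at least 2, against 49.8%. The share of genes that held a region increased with gene length, and among genes longer than 5300 bp it was higher with a marked promoter in each length class. Among genes of 20000 to 50000 bp it was 4.01% with a promoter signal of at least 2 and 1.93% below that level. Among genes above 200000 bp it was 17.1% and 6.08%. The promoter signal was not used by the rule, although the same libraries supplied both.

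The 10 fixed gene lists were unequally represented. Of 28 intestinal transcription factors, 6 (21.4%) held a region, as did 6 of 34 brush border and absorption genes (17.6%) and 4 of 25 epithelial junction and keratin genes (16.0%), against 2.70% of all protein-coding genes. Wnt, crypt and stem cell genes had 2 of 28 (7.14%) and the H3K4 methylation machinery 1 of 20 (5.00%). No gene of the secretory, immune, mesenchyme and muscle, neuron and glia, or housekeeping lists held one. These lists have 16 to 24 genes, and at a share of 2.70% a list of that size can hold none. Secretory and housekeeping genes were also short, with median lengths of 9720 and 9296 bp. Among all protein-coding genes of 5300 to 20000 bp, 0.639% held a region. The median gene length was 22958 bp for the transcription factors, 27336 bp for the brush border list and 467584 bp for neurons and glia, and the median promoter signal 6.70, 6.62 and 0.472. These counts are described beside those over all genes and no list was tested.

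Transcription factors of the intestinal epithelium held 8 regions. Inside Prdm1, which encodes the repressor Blimp1, 2000 bp at chr10:44446801-44448800 had 1.97 and 3.20 in WT and 20.1 and 3.20 in ApcMin/+ mice. Gata4, the factor of the proximal small intestine, held 2 regions. The first, with a CpG ratio of 0.883, had 1.74 and 1.40 in WT and 9.32 and 3.57 in ApcMin/+ mice, and the second 1.38 and 2.15 against 5.70 and 2.88. In both the groups did not overlap. Klf5, a zinc-finger factor of proliferating epithelium, had 3.25 and 1.66 in WT and 9.83 and 2.62 in ApcMin/+ mice over 1400 bp.

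Vdr, the vitamin D receptor gene, had 9.60 and 2.65 in WT and 3.60 and 3.79 in ApcMin/+ mice, where 1 WT library was high. Nr1i2, which encodes the pregnane X receptor, held a region of 300 bp with 7.51 and 3.42 in WT and 6.15 and 6.91 in ApcMin/+ mice. A second of 500 bp had 2.33 and 1.38 against 7.16 and 4.01, without overlap. The homeobox gene Cdx1 had 1.71 and 3.73 in WT and 4.0 and 4.84 in ApcMin/+ mice. Over these 8 regions the median log2 difference between ApcMin/+ and WT was 0.898, beside 0.865 over all 14071 regions.

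Brush border and absorption genes held 6 regions, of which none was higher in both ApcMin/+ libraries than in both WT libraries, where 34.7% of all regions were, and 2 were lower in both, where 1.02% of all regions were. With so few regions these counts are given as a description. Mgam, the maltase-glucoamylase gene, had 5.43 and 2.46 in WT and 20.2 and 3.82 in ApcMin/+ mice, in a region of 1800 bp with a predicted RefSeq 5′ end of Mgam itself. Cubn, which encodes the receptor of intrinsic factor and vitamin B12, had 1.5 and 2.28 against 9.69 and 1.05. Slc15a1, the peptide transporter gene, had 3.4 and 2.06 in WT and 6.82 and 2.77 in ApcMin/+ mice. Slc2a2, which encodes the glucose transporter GLUT2, was the most even of those named here, with 6.85 and 6.90 in WT and 4.36 and 6.58 in ApcMin/+ mice. Abcg8, part of the sterol exporter, had 5.92 and 4.35 in WT and 1.42 and 1.80 in ApcMin/+ mice.

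Junction genes held 5 regions. Tjp1, the gene of the tight junction protein ZO-1, held 2 neighbouring regions that differed in pattern. The first had 0.729 and 2.57 in WT and 15.3 and 4.67 in ApcMin/+ mice, and the second 6.97 and 2.78 against 3.89 and 6.45. Cdh1, the E-cadherin gene, had 3.12 and 2.67 in WT and 7.07 and 2.0 in ApcMin/+ mice, and the desmoplakin gene Dsp 13.1 and 2.47 against 2.29 and 5.11. Of the Wnt genes, Tcf7l2, which encodes a factor that binds beta-catenin, had 9.74 and 2.44 against 0.758 and 3.31, and Rnf43, which encodes a ligase that removes Frizzled receptors, 3.11 and 2.52 against 5.99 and 3.07. The H3K4 methyltransferase gene Setd1b had 5.40 and 2.63 in WT and 14.2 and 4.80 in ApcMin/+ mice.

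**Figure D3:**
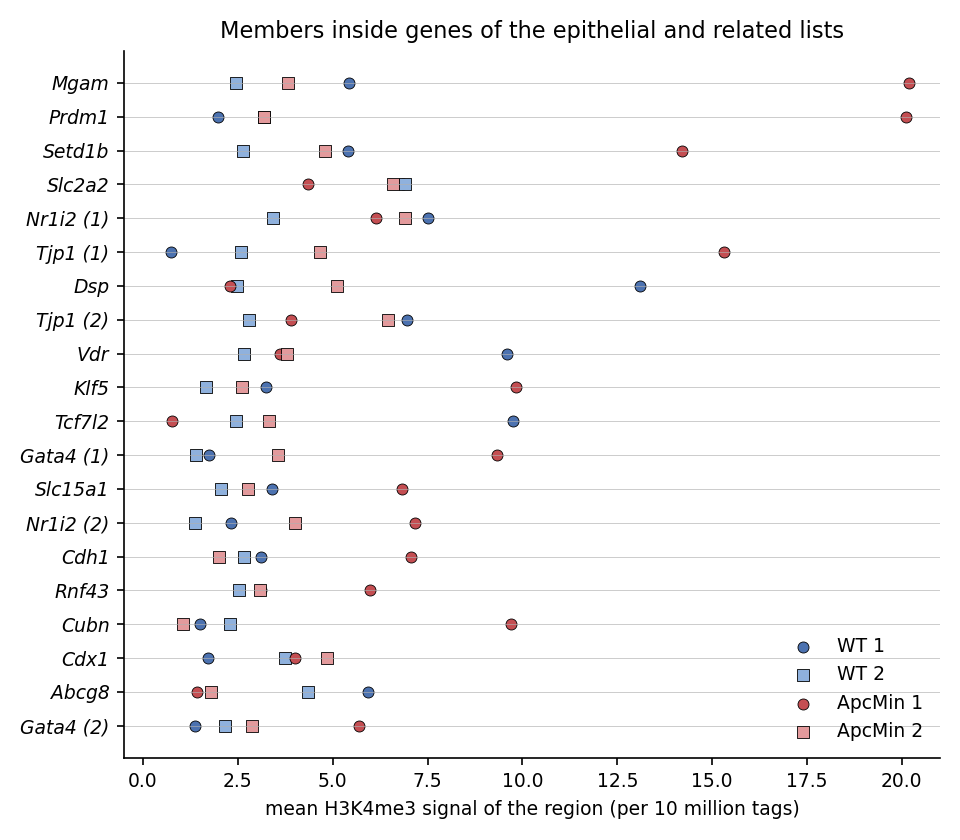
Mean H3K4me3 signal (coverage scaled to 10000000 tags) in each of the 4 libraries for 20 of the 22 regions inside genes of the fixed lists, 1 row per region and 1 symbol per library. The ApcMin 1 library leads at Mgam (20.2) and Prdm1 (20.1), whereas WT 1 leads at Dsp (13.1) and Tcf7l2 (9.74).

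Motifs were searched on both strands in the 300 bases at the highest bin of each region. These windows can run past the ends of the region. The 10 motifs were fixed letters for the TATA box, the Sp1 GC box, ETS factors, the E-box, AP-1, HNF4A, GATA, CDX2, TCF/LEF and CTCF, spelled out below except for CTCF. Matches of different motifs shared bases in 7 of the 724 windows, and 331 windows held no match at all.

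AP-1 elements, TGANTCA, which bind Fos and Jun dimers, were found in 145 windows (20.03%). They were found in 14.8% of the regions between genes, in 5.53% of promoter-proximal regions and in 7.81% of all 32851 RefSeq promoters of the same length. For comparison with local sequence, the share was 9.88% in 1448 windows placed 2000 bp to either side of the same bins. It was 11.7% in the 2294 promoter-proximal regions with a CpG ratio below 0.4. HNF4A elements, CAAAGTCCA, were found in 2.07% of windows inside genes, against 0.345% of the flanks and 0.475% of RefSeq promoters. Their share was 2.36% in regions between genes and 1.70% in promoter-proximal regions of low CpG content. GATA elements, AGATAAG, were found in 7.87%, against 4.77% of the flanks and 3.04% of promoters. They were in 6.96% of regions between genes and in 5.54% of promoter-proximal regions of low CpG content.

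The GC box, GGGCGG, was rarer inside genes, at 14.5%, than in promoter-proximal regions, at 42.9%, and RefSeq promoters, at 35.7%. Against the flanks, at 4.56%, it was more common inside genes. In promoter-proximal regions of low CpG content it was found in 15.0%, and in regions between genes in 20.4%. TATA boxes, TATAAA, were in 8.01% of windows, against 18.3% of flanks, whose median GC content was 47.3% against 52.8%. CDX2 elements, TTTATGG, were about as common as in the flanks, 4.01% against 3.87%. So were TCF/LEF elements, ATCAAAG, at 4.56% against 4.90%. ETS elements, CCGGAAG, were found in 4.28% of windows, 2.07% of flanks and 11.5% of promoter-proximal regions. E-boxes, CACGTG, were found in 7.32%, and CTCF cores in 0.69%. The shares over all RefSeq promoters were 13.6% for TATA boxes, 8.86% for ETS elements, 7.15% for E-boxes, 2.75% for CDX2, 3.73% for TCF/LEF and 0.557% for CTCF.

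Motif shares were compared with the number of libraries that supported a region. AP-1 elements were in 21.7% of the 332 regions at 10 times the mean in 3 or 4 libraries and in 17.3% of the 156 regions with 0 or 1 such library. HNF4A elements were in 3.01% and in 0%, which is 0 of 156 windows and allows a share of up to 1.92%, and ETS elements in 5.72% and 1.28%. TATA boxes went the other way, 5.42% and 10.3%. The median GC content was 51.5% for regions with 1 such library and 53.7% for regions with 4, and its part in these shares was not tested.

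**Figure D4:**
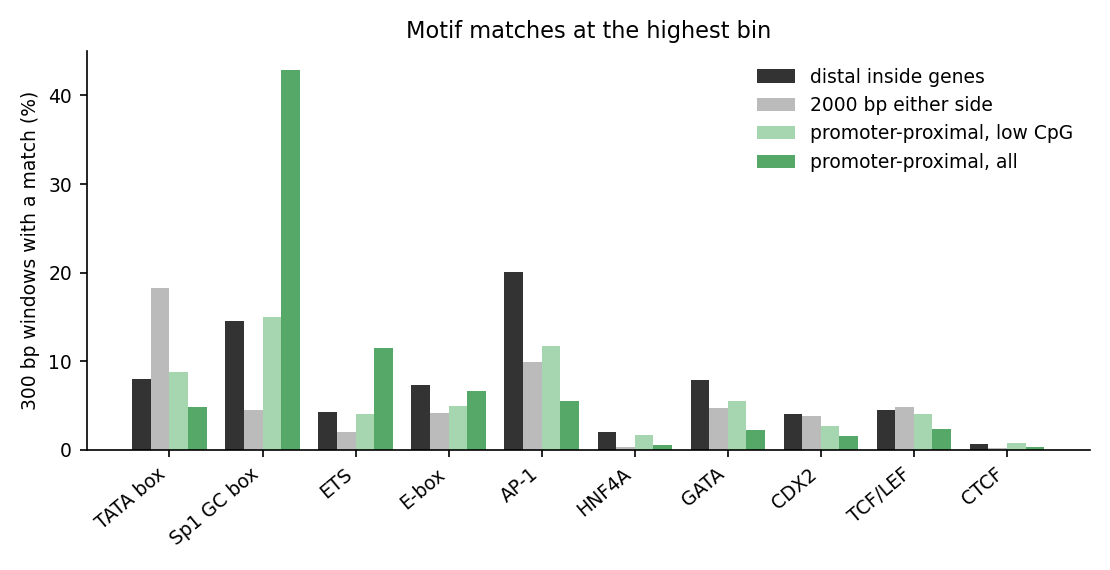
Percent of 300 bp windows with at least 1 match to each motif, for distal regions inside genes, for windows 2000 bp to either side of them, for promoter-proximal regions with a CpG observed/expected ratio below 0.4 and for all promoter-proximal regions. AP-1 is highest inside genes (20.03%) and the Sp1 GC box highest in promoter-proximal regions (42.9%).

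The genotypes were compared over libraries, to ask whether the mark at these regions differed in ApcMin/+ villi. The mean signal over the regions, weighted by length, was 5.12 and 3.14 in WT and 10.5 and 4.28 in ApcMin/+ mice, or 4.13 ± 1.40 against 7.38 ± 4.38 (SD, n = 2 each). The log2 ratio of 0.84 rested on ApcMin/+ replicate 1 (p = 0.667, two-sided exact permutation test), and the second ApcMin/+ library lay between the WT libraries. With 2 libraries against 2, no p below 0.333 is possible. The regions held 0.238% and 0.146% of the track in WT and 0.489% and 0.20% in ApcMin/+ mice (p = 0.667, exact permutation test). Without ApcMin/+ replicate 1 the log2 ratio of mean signal was 0.05.

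Relative to promoter-proximal regions of the same library, where scaling cancels, the regions stood at 0.756 and 0.743 in WT and at 0.525 and 0.741 in ApcMin/+ mice. Both ApcMin/+ values lay below both WT values, at a log2 ratio of -0.24 (p = 0.333, two-sided exact permutation test, the smallest possible), but the second ApcMin/+ library stood at 0.741 beside 0.743 in WT replicate 2, and the log2 ratio without the first was -0.02.

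Across all 14071 regions, limma on log2(signal + 1) called 0% at an adjusted p of 0.05, and so 0 of the 724 (smallest adjusted p 0.741). At an unadjusted p of 0.05, 25 of the 724 and 262 of all regions passed. The median log2 difference was 0.47 inside genes, beside 0.865 over all regions, with a median standard error of 0.898 for a single region. After the median over all regions had been subtracted in each library, limma again called 0% of all and 0 of the 724, with a median difference of -0.38 inside genes and 0.0142 over all. At an unadjusted p of 0.05 the centred fit passed 80 of the 724 and 528 of all regions. The sign of the median therefore turned when differences were taken relative to the median region. No single region passed in either fit, and the median differences themselves were not tested.

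**Figure D5:**
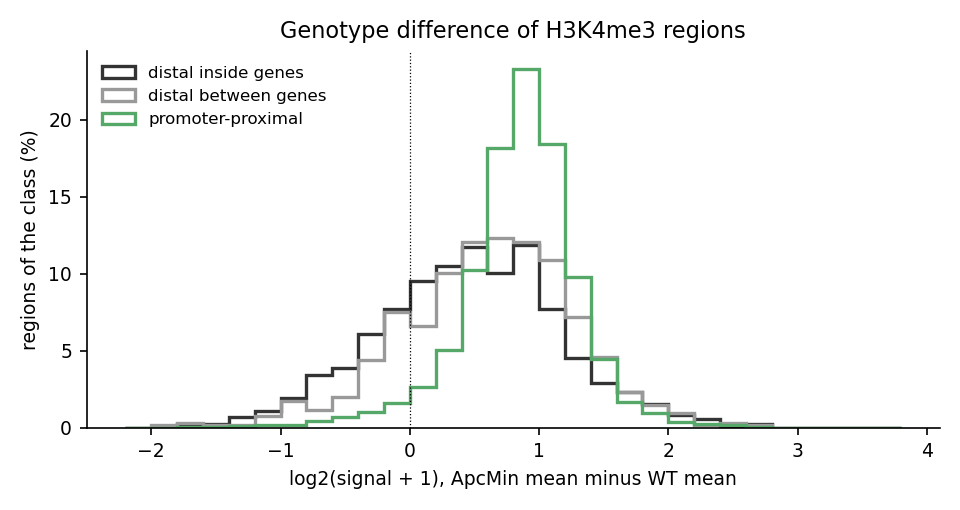
Distribution of the difference in log2(signal + 1), ApcMin mean minus WT mean, as percent of the regions of each class. Regions inside genes have a median of 0.47, below that of promoter-proximal regions (0.884), and none of either class passed the test.

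Both ApcMin/+ values exceeded both WT values in 206 of the 724 regions (28.5%), where 34.7% of all regions did so, and both lay below in 31 (4.28%), where 1.02% of all regions did so. Large positive differences without overlap were at low counts in WT. At the kinesin gene Kif21b the signal was 0 and 0.516 in WT and 19.4 and 2.47 in ApcMin/+ mice, that is 0.0 and 0.7 against 21.5 and 4.1 fragments (log2 difference 2.77 ± 1.06, standard error). Atg4c, which encodes an autophagy protease, had 0 and 1.14 against 15.4 and 3.52, Palld, the gene of the actin-associated protein palladin, 0 and 1.25 against 20.2 and 1.78, and the coronin gene Coro2a 0 and 1.80 against 14.1 and 3.54. In these 4 the shallow WT replicate 1 held no fragment, and each had an adjusted p of 0.741 in limma.

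Among regions whose groups did not overlap, the largest negative differences were at Jak1, Hectd4, Mid1, Mroh2a and Abcg8. Jak1, which encodes a kinase of cytokine receptors, had 8.86 and 2.73 in WT and 0.629 and 0.976 in ApcMin/+ mice (log2 difference -1.76 ± 1.05, standard error), from 8.9 and 9.2 against 1.6 and 3.7 fragments. Hectd4, a gene of a HECT-domain protein, had 10.4 and 2.40 against 0.732 and 2.38. Mid1, a microtubule-associated ligase gene on chromosome X, had 17.3 and 3.54 against 2.71 and 2.56, in a region that is 57.8% repeat-masked. Mroh2a had 11.7 and 3.69 against 1.48 and 3.18, and Abcg8 is given above (-1.22 ± 0.94). In the first 4 of these the value of WT replicate 1 stood apart, and none passed the test.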

How the data were processed

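H3K4me3 CUT&RUN tracks of 4 libraries (2 WT and 2 ApcMin/+) were analysed; other libraries of the series were not used here. Upstream, per the methods, read pairs were trimmed (Novocraft), mapped to mm10 (Bowtie2) and cleared of duplicates (Picard) and of mapping qualities below 10 (samtools), and fragments outside 150 to 500 bp were dropped. The deposited values are signal: HOMER coverage that the authors scaled to 10000000 tags, without control subtraction or pooling of replicates. Fragments at a region were obtained from its share of the track and the tags in the file header, and counting error is large at this depth.

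Regions were called on the equal-weight mean in 100 bp bins of 21 chromosomes and annotated with GENCODE M21 and RefSeq on mm10. Signals were compared with limma 3.58.1 with a trend (R 4.3.3) on log2(signal + 1), without a replicate block, Benjamini-Hochberg adjusted over 14071 regions with a threshold of 0.05, after the step was tested on simulated data. There it recovered 147 of 200 changed regions with 1 false call. The simulated libraries varied less than the real ones and had no shift of a whole library, so this does not give the power on these data. Library values were compared by exact permutation tests (scipy 1.17.1, numpy 2.4.6, pandas 2.3.3, Python 3.11.15). Promoter signal was averaged over 1000 bp on each side of a 5′ end. RefSeq promoters on GRCm38.p6 were all searched for motifs.

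The regions and gene lists were chosen with earlier results of these data known. Named regions are the 10 of highest mean signal, the 5 longest, the 5 largest differences in each direction without overlap, those inside genes of the fixed lists, and those next to the limits of the rule; the rule also takes any region past the test, of which there was none. The values of 3 of these regions are not reported here. Printed sequences are the first 6 of these with under 20% repeat masking, outside UTRs and outside chromosome 18, and 6 chosen later for their motifs. Alternatives tried were the calling limits and weights, scaling, pseudocount, a signal filter, a repeat limit, the replicate block and leaving out each library.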

Additional observations from a re-analysis of the deposited data

How the results depend on the processing

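The number of regions moved with the limits of the rule: from 724 it became 106 at 20 times the mean, 13146 at 5 times and 385 at 10000 bp from every 5′ end. It was 690 with a tag-weighted mean, 712 and 724 with gaps of 200 and 1000 bp, and 717 under 50% repeat-masked. Calling without 1 library gave 764 to 1108 regions, the highest without WT replicate 2. The limma count of 0 among them stayed 0 under centring, quantile normalization, scaling to background, pseudocounts of 0.1 and 5 and the signal filter. Leaving out libraries gave 0 to 120, the 120 without ApcMin/+ replicate 2, when the first ApcMin/+ library stood alone against WT and was assumed to vary as the WT libraries do; 116 of these were higher. In the centred fit it gave 0 to 46, all lower, with 2 without WT replicate 1, 1 without WT replicate 2 and 46 without ApcMin/+ replicate 2. The median difference of 0.47 became -0.38 when centred and -0.27 after quantile normalization, since the median of all regions was moved to about 0, and was 0.08 to 0.89 without a library. It was 0.75 scaled to background. Without ApcMin/+ replicate 2 the median difference was 0.89 inside genes, beside 1.62 over all regions. In the centred fit without that library it was -0.68 inside genes, beside 0.0456 over all regions. Each fit without a library leaves 1 library in a group, so no conclusion about these regions was drawn from its counts. The log2 ratio of mean signal was 0.05 to 1.34 without a library, the share of the track 0.05 to 1.35, and the ratio to promoter-proximal regions was -0.51 to -0.02. The 10 largest differences kept their sign under each scaling. They also kept it under each pseudocount and omitted library. That was fixed in advance, because these regions were picked among those whose groups did not overlap.

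With the replicate number as a block the limma count was 0, and 0 in the centred fit. Deviations of equally numbered libraries correlated at -0.06 across all regions and at -0.214 across those inside genes. A correlation does not see a shift common to all regions. In both genotypes replicate 1 had fewer tags and a higher mean signal over the regions than replicate 2. The signal outside enriched regions was 0.268 and 0.189 in the first libraries of WT and ApcMin/+, against 0.314 and 0.285 in the second. Whether the numbers mark a batch was not tested. A crossed block, added after the data were seen, also gave 0.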

Other observations

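Of the 591 host gene names, 109 held 2 or more regions, and these were looked at after their values were seen. Cdh17, which encodes the intestinal cadherin LI-cadherin, held 3 regions within chr4:11764801-11771700, and in all 3 both ApcMin/+ libraries exceeded both WT libraries, as they did in 28.5% of the 724 regions and 34.7% of all regions. Mapt, Prdm16 and Sult2b1, which also held several regions, had none of this kind. At the Cdh17 regions the signal ranged from 1.90 to 3.49 and from 1.90 to 3.14 in WT replicates 1 and 2. In ApcMin/+ replicates 1 and 2 it ranged from 5.95 to 23.5 and from 3.36 to 6.87. Myo5b, the motor of apical recycling vesicles, and Slc9a3r1, the scaffold of brush border transporters, also held 3 each. Myo5b regions ranged from 1.96 to 4.59 and from 2.51 to 3.09 in WT and from 5.67 to 12.1 and from 2.90 to 5.16 in ApcMin/+ mice. Those of Slc9a3r1 lay within a gene of 17841 bp and ranged from 5.51 to 6.34 and from 1.82 to 3.24 in WT and from 4.43 to 9.61 and from 2.15 to 4.17 in ApcMin/+ mice.

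The neighbouring genes Mroh2a and Trpm8, the latter of which encodes a cold-sensing channel, together held 9 regions within 64200 bp at chr1:88232101-88296300. In all 9 ApcMin/+ replicate 1 lay below WT replicate 1, which was so in 232 of the 724 regions (32.0%). Their median signals were 7.12 and 3.69 in WT and 2.31 and 4.44 in ApcMin/+ mice. The promoter of Mroh2a had 4.25 and 2.40 in WT and 1.88 and 4.04 in ApcMin/+ mice, with ApcMin/+ replicate 1 below WT replicate 1 as in the regions. The promoter of Trpm8 had 22.0 and 18.1 in WT and 50.4 and 22.1 in ApcMin/+ mice. These differences were not tested apart from the fit across all regions, in which none passed.

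The host name with the most regions, 14, was Gm20388, a gene model of 4434882 bp that spans other host genes such as Gse1, and 4 of its regions are also counted under Gse1.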
